A study of Mus musculus with 31 samples.

Results

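The day 14 programme was taken as the probe sets whose mean log2 signal in embryoid bodies (EBs) of day 14 lay at least 2-fold above, or at least 2-fold below, the mean of each of the 4 other groups of the series. Of 12422 probe sets, 112 lay above (0.902%) and 24 below (0.193%), so that 136 probe sets, which carry 120 named genes, are described. The 6 EB day 14 arrays were compared with 6 arrays of ES cells on gelatin, 6 of ES cells sorted for an Oct4 GFP reporter, 7 of EB day 4 and 6 of EB day 8. The methods describe B6 mouse ES cells kept on feeder cells with serum and LIF, the cytokine that holds mouse ES cells undifferentiated. They do not describe the sorted cells. The EBs were aggregates of the gelatin cells in nonadherent dishes, grown without LIF, and feeder cells had been depleted by brief plating on gelatin. The sources used here give 1 ES cell strain and no independent line. Values are array signals on a linear scale, and only levels of the same probe set are compared. An array of a whole EB averages all its cells, so fewer cells of a type and less RNA per cell cannot be told apart.

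An embryoid body forms an outer layer of visceral endoderm, which makes plasma proteins in the yolk sac before the liver does, and an inner mass from which mesoderm and neural cells arise. Connective tissue, the blood proteins of endoderm and the regional transcription factors of the neural tube are among the products that appear after germ layers have formed. Naive pluripotency genes, and the germ-cell-associated Dppa genes with them, are shut down as ES cells differentiate.

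Promoters of 4 members of the plasma protein and connective tissue groups described below are shown because their windows hold a searched motif. Dcn and Lum, with larger distances than Col3a1, are named only, and a second Postn window held neither motif. The window of Apob, an endoderm gene described below, also held a searched motif and is not shown. The windows run 5′ to 3′ on the gene's strand, from RefSeq on build GRCm38.p6, and capitals mark a motif found by letter search on both strands. In Fga (chr3:83025903-83026202, plus strand) and Igfbp1 (chr11:7197537-7197836, plus strand) the capitals are a match to GTTAATNAT. These letters are only part of the recognition site of HNF1, a homeodomain factor of liver and yolk sac endoderm. In Col3a1 (chr1:45311288-45311587, plus strand) and Postn (chr3:54360857-54361156, plus strand) they are TATAAA, the letters at the core of a TATA box. The Col3a1 match lies farther from the gene's start than the Postn match, and neither was tested as a TATA box.
Fga: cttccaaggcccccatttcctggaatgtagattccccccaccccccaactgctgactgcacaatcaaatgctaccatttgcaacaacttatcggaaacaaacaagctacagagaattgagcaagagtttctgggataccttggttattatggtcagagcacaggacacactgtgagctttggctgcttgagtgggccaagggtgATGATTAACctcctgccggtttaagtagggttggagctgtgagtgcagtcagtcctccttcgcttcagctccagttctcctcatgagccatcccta
Igfbp1: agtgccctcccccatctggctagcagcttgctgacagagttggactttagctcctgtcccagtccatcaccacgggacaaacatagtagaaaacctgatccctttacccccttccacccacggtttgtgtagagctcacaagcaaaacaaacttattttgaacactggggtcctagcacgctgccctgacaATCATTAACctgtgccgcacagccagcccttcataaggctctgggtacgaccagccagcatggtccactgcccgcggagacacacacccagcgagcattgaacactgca
Col3a1: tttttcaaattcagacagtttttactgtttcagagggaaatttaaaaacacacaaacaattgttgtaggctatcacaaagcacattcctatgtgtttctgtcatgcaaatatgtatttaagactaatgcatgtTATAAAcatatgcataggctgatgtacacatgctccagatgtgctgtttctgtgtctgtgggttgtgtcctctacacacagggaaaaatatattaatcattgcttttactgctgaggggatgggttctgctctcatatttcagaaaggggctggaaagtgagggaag
Postn: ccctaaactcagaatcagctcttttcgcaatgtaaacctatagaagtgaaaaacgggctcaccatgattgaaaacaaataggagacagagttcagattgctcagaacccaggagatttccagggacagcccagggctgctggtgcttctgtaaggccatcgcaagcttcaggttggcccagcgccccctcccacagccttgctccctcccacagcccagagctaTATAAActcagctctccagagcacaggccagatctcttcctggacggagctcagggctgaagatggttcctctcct
GTTAATNAT was in 254 of 27025 genes with a promoter window (0.94%), in 2 of the 80 higher members with one, and in 0 of the 12 lower members. Those 2 genes are Fga and Igfbp1, out of 9 higher members of the endoderm and plasma protein lists that had a window. TATAAA was in 15.7% of all genes, in 9 of 80 higher members and in 0 of 12 lower members. These matches are descriptions of the letters and not of binding.

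The day 8 arrays stood apart from each other, and this touches every value below. The mean log2 signal over the 112 higher probe sets lay between 10.11 and 10.71 in the day 14 arrays. It was 9.74, 9.46 and 9.06 in day 8 replicates 2, 4 and 6, and 8.50, 8.37 and 8.25 in day 8 replicates 1, 3 and 5. For 96 of the 112 higher probe sets the single array nearest to the day 14 mean was a day 8 array, and it was replicate 2 in 70, replicate 4 in 19 and replicate 6 in 7. Without day 8 replicates 2, 4 and 6 the same rule found 183 higher and 40 lower probe sets, and without replicates 1, 3 and 5 it found 42 and 11. These arrays were left out after their values had been seen. The deposited labels give no batch, and what sets these arrays apart was not tested. Over the lower probe sets day 4 replicates 6 and 7 had means of 11.32 and 11.46, against 11.58 to 11.99 in the other day 4 arrays. Over the higher probe sets replicate 6 was the lowest day 4 array at 7.92, and replicate 7 lay among the others. The 3′ to 5′ signal ratio of the Gapdh control, a measure of RNA integrity and amplification, was 2.43 ± 0.22 at day 14 and 2.31 ± 0.19 at day 8, against 3.12 ± 0.75 at day 4, 2.92 ± 0.15 in sorted cells and 5.22 ± 1.55 on gelatin (SD). That of Actb was 2.48 ± 0.31 at day 14 and 2.98 ± 0.29 at day 8, against 3.12 ± 0.37 at day 4, 2.54 ± 0.18 in sorted cells and 5.29 ± 1.22 on gelatin.

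**Figure D1:**
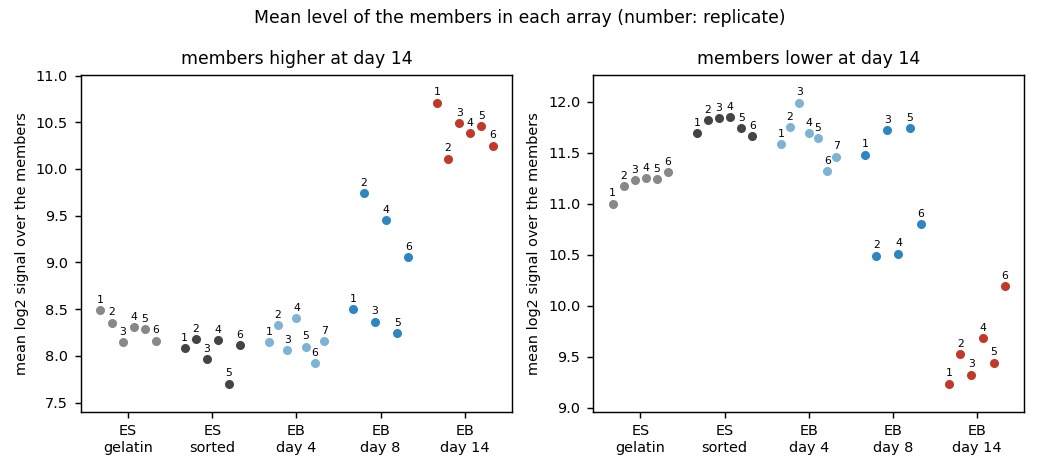
Mean log2 signal over the 112 probe sets higher at day 14 (left) and the 24 lower at day 14 (right), 1 dot per array with its replicate number, in the order of the time course. Day 8 replicates 2, 4 and 6 lie between day 14 and the remaining arrays on both sides, and day 14 replicate 6 is the highest day 14 array among the lower members.

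In 60 of the 112 higher probe sets every day 14 array lay above all 25 other arrays, and in 17 of the 24 lower ones every day 14 array lay below them. Over all probe sets 2.19% lay wholly above and 1.69% wholly below, but the members were chosen on these same means, so nothing is read from the excess. In the limma fit (called at an adjusted p under 0.05 with the same sign against each group) 8.34% of all probe sets were higher and 5.12% lower at day 14 than in all 4 groups. All 112 higher members and 23 of the 24 lower members were among them, Zfp42 being the exception, but these contrasts use the means that chose the members, so this count is a description. With each array centred on its median the split over all probe sets turned to 737 higher and 1141 lower, from 1036 and 636 as deposited. The day 14 mean was at least 2-fold from every single one of the 25 arrays for 17 higher and 5 lower probe sets. On the higher side they included Dcn, Zic1, Fga, Fabp7, Igfbp1, Chgb, Cfi, Dipk2a, Hbb-b2, Dlx1, Kng1, Serpina1b and Vnn1. On the lower side they included Dppa2, Dppa5a, Dmrt1, Rps4l and Fbxo15.

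**Figure D2:**
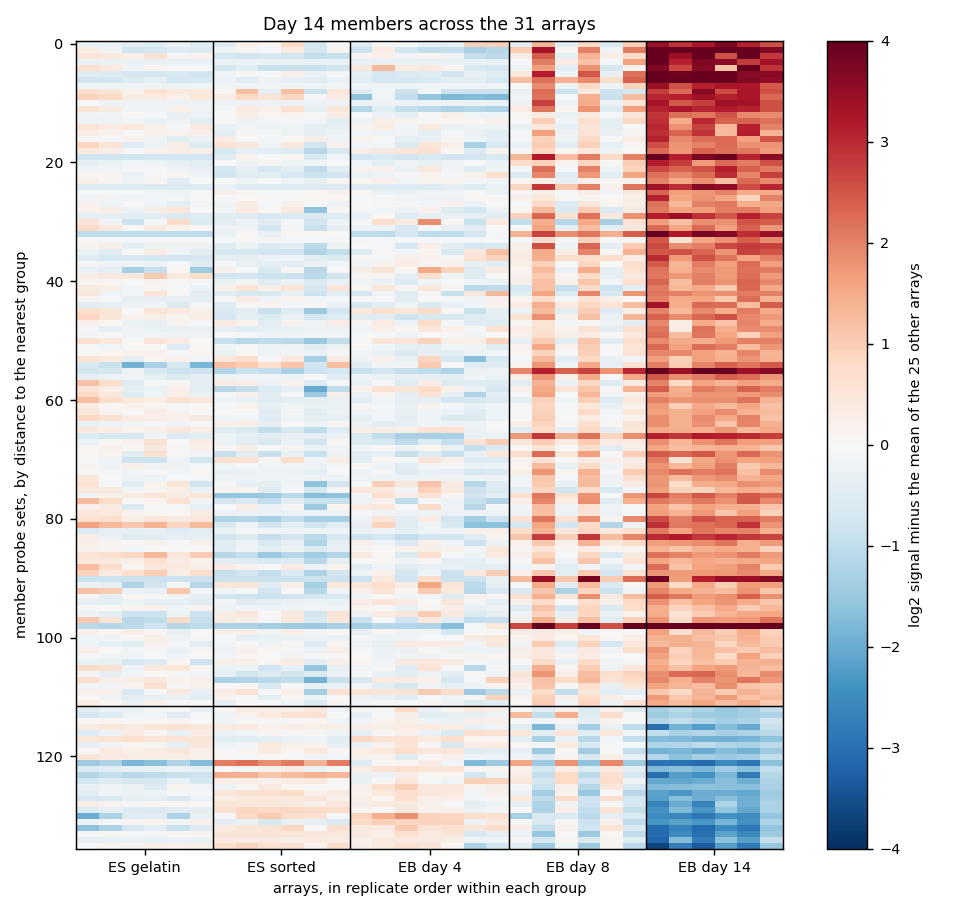
Log2 signal of each member minus its mean over the 25 other arrays, 136 probe sets (rows, 112 higher above the line and 24 lower below it) in 31 arrays (columns, in the order of the time course and then of replicate). The red block of the higher members is at day 14, and paler red stripes mark day 8 replicates 2, 4 and 6.

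Genes of the extracellular matrix of connective tissue formed the first group, and Dcn and Postn had the largest distances of all higher members. Dcn encodes decorin, a small proteoglycan that binds collagen fibrils. Its signal ran from 2901 over a median of 4446 to 6754 at day 14, against 339 to 1247 with a median of 617 at day 8, and 308 to 971 in the 19 ES and day 4 arrays. Day 14 was 7.31-fold above the nearest group mean and did not overlap any other array. Postn, periostin, an adhesion protein of connective tissue, measured 3433, 4749 and 5349 (lowest, median and highest) at day 14, against 240, 800 and 2569 at day 8. Its highest ES or day 4 signal was 343. Lum, lumican, another collagen-binding proteoglycan, measured 4331, 5228 and 6630 at day 14, against 276, 1027 and 3036 at day 8. Lum and Dcn lie next to each other on chromosome 10, with 0 genes between them in RefSeq order. Col3a1, the chain of type III collagen, measured 4575, 6686 and 7345 at day 14, against 550, 1723 and 3493 at day 8. All 3 probe sets of Col3a1 were members. Tgfbi, a matrix protein induced by TGF beta, was the fifth gene of the group, with 376 to 634 at day 14 against 176 to 304 at day 8.

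The matrix genes shared their lowest day 14 array, but not their highest. All 5 were lowest in day 14 replicate 6, as were 36 of all 112 higher probe sets. The highest array was replicate 4 for 3 of the 5 genes, and replicate 1 or 2 for the others. At day 8 Postn measured 2569, 1073 and 1098 in replicates 2, 4 and 6, against 527, 285 and 240 in replicates 1, 3 and 5, and Lum and Col3a1 split in the same way. The log2 distance of Lum to its nearest group was 2.63 with all arrays, 3.94 without day 8 replicates 2, 4 and 6, and 1.31 without replicates 1, 3 and 5. That of Dcn was 2.87, 3.06 and 2.14 in the same order.

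Of the 39 measured genes of the fibroblast and connective tissue list, 9 were higher and 1 was lower at day 14 than in all 4 groups (limma, adjusted p under 0.05), beside 8.85% higher and 5.78% lower over all 8251 genes. The list's median difference between day 14 and day 8 was 0.24 on the log2 scale, and 0.03 over all genes. Pdgfra, the PDGF receptor of mesenchymal cells, rose just short of the 2-fold limit (day 14 minus day 8 1.00 ± 0.14 log2, SE, adjusted p = 5.18e-06). Mfap5, a microfibril protein, was the lower gene, and its day 14 signals of 82.9 to 98.4 lay below all other arrays. The chains of type I collagen were not members, because the gelatin cells were also high. Col1a2 measured 3646, 5736 and 7211 at day 14, against 2394, 3003 and 7152 on gelatin. Against day 8 Col1a2 was 2.30 ± 0.31 log2 higher (SE, limma adjusted p = 3.42e-06) and Col1a1 1.14 ± 0.20 (8.5e-05).

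**Figure D3:**
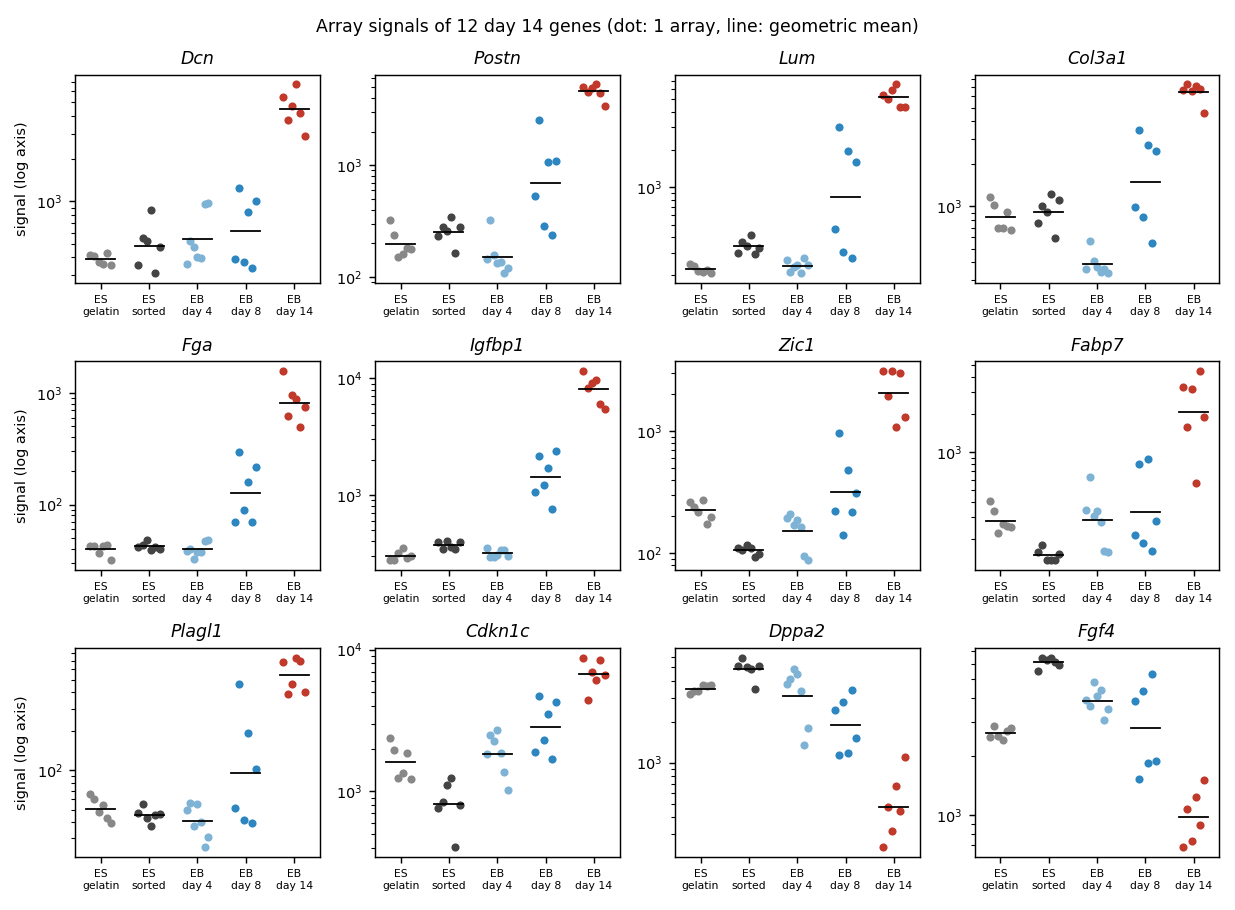
Signal on a log axis of 12 genes in each of the 31 arrays, in the order of the time course, with 1 dot per array and a line at the geometric mean of the group. The first 10 genes have their highest dots at day 14 and Dppa2 and Fgf4 their lowest, and the day 8 dots of Postn, Lum, Col3a1 and Plagl1 spread over a wide range.

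Plasma proteins of endoderm formed the second group. Fga, Fgb and Fgg encode the 3 chains of fibrinogen, the protein of the blood clot, and lie together on chromosome 3, with Fga next to both others. Fga measured 493, 806 and 1568 at day 14, against 69.6, 124 and 293 at day 8, and no ES or day 4 array was above 48.2. Fgb measured 1697, 2233 and 2768 at day 14, against 551, 942 and 1388 at day 8, and 65.4 to 140 in the ES and day 4 arrays. Fgg measured 575, 1165 and 2452 at day 14, against 311, 396 and 658 at day 8, and its lowest day 14 array lay under the highest day 8 array. Of the log2 difference between day 14 and day 4, 44.7% was present at day 8 for Fgg and 71.9% for Fgb. All Fga arrays of day 4 lay under the floor of 59.6 that was set before taking logs, so no such share is given for it.

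F2 is prothrombin, the clotting enzyme's precursor, and measured 927, 1417 and 2177 at day 14 against 316, 482 and 790 at day 8. Kng1, kininogen, which releases bradykinin, measured 706, 1254 and 3323 at day 14 against 386, 432 and 522 at day 8. Igfbp1, a secreted binding protein of insulin-like growth factors, measured 5439, 8715 and 11610 at day 14 against 752, 1466 and 2369 at day 8, and stayed at 274 to 400 in the ES and day 4 arrays. Its second probe set moved by only 0.16 log2 from the nearest group. Cfi, complement factor I, which inactivates complement, measured 592, 904 and 1592 at day 14 against 164, 211 and 362 at day 8. The antitrypsin probe sets, of which 1 is annotated to Serpina1b and 1 to 5 paralogs, cannot be assigned to a single copy. The Serpina1b probe set measured 963 to 1755 at day 14 and 322 to 453 at day 8.

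All 7 members of the coagulation and plasma list were highest in day 14 replicate 1, as were 43 of all 112 higher probe sets. Kng1, for example, measured 3323 there, while the next highest day 14 array had 1529. Of the 36 measured genes of the list, 15 were higher and 0 lower at day 14 than in all 4 groups, beside the 8.85% and 5.78% over all genes. The list's median difference from day 8 was 0.17 log2. With day 8 replicates 1, 3 and 5 left out, 14 genes of the list passed. Over all probe sets 415 passed as higher in that setting, and 1036 with all arrays. Serpind1, heparin cofactor II, rose without being a member (1.02 ± 0.08 log2 above day 8, SE, limma adjusted p = 3.19e-09).

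The endoderm genes also differed in how far they had moved by day 8. Apob, the core protein of lipoprotein particles, measured 4025, 5159 and 9640 at day 14, against 1489, 2854 and 5279 at day 8 and 77.4 to 328 in the ES and day 4 arrays. Of its log2 difference between day 14 and day 4, 80.4% was present at day 8. Without day 8 replicates 1, 3 and 5 its difference from day 8 was 0.29 log2 and no longer passed the test. Dab2, an endocytic adaptor of visceral endoderm, measured 5363 to 7452 at day 14 against 1619 to 5853 at day 8, and its brightest probe set, no member, was only 0.41 log2 from the nearest group. Pdzk1, a scaffold for transporters at the apical membrane, was later, with 548, 749 and 1408 at day 14 against 219, 283 and 478 at day 8. Of the 29 measured genes of the yolk sac and liver endoderm list, 14 were higher and 0 lower at day 14 than in all 4 groups. Over all genes the shares were 8.85% and 5.78%. The list's median was 0.41 log2 above day 8, and 7 of its genes passed without day 8 replicates 1, 3 and 5. In that setting 415 of all probe sets passed as higher, and 1036 with all arrays. Alb, albumin, was 0.87 ± 0.15 log2 above day 8 (SE, limma adjusted p = 1.08e-04) and Afp, the fetal alpha-fetoprotein, 0.56 ± 0.11 (2.1e-04). Their day 14 arrays did not overlap the others.

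Surface proteins of absorptive epithelium were among the higher members. Slc2a2, the glucose transporter of liver, gut and kidney, measured 454 to 917 at day 14 against 188 to 544 at day 8. Vnn1, a pantetheinase of epithelial membranes, measured 937, 1331 and 1762 at day 14, and no other array was above 646. Tspan8, a tetraspanin of epithelia, measured 856, 1307 and 1605 at day 14 against 168, 328 and 912 at day 8. Timd2, a ferritin receptor, measured 522, 786 and 1078 at day 14 against 95, 262 and 604 at day 8. Of the list of kidney and gut transport epithelium, 4 of 24 genes were higher and 1 lower than in all 4 groups. Of the epithelial list 4 of 31 were higher and 0 lower, beside 8.85% higher and 5.78% lower over all genes. The kidney and gut list held 1 member and the epithelial list 0.

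Neural genes formed the third group. Zic1, a zinc finger factor of the dorsal neural tube, measured 1073, 2462 and 3110 at day 14, against 142, 268 and 970 at day 8 and 87.8 to 271 in the ES and day 4 arrays. Fabp7, the fatty acid binding protein of radial glia, measured 569, 2532 and 4447 at day 14 against 160, 249 and 873 at day 8, so that its lowest day 14 array overlapped day 8. Only 7.37% of its log2 difference from day 4 was present at day 8. Ptn, pleiotrophin, a secreted growth factor of neural tissue, measured 522, 707 and 1394 at day 14 against 31, 78.3 and 509 at day 8. Sox11, a factor of newly formed neurons, measured 4537 to 6191 at day 14 against 923 to 2546 at day 8, and both its probe sets were members.

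Other members with known roles in neural or neuroendocrine cells, chosen after their values were seen, differed in how much of the change was present at day 8. Dlx1, a homeobox factor of inhibitory neurons, measured 344, 556 and 720 at day 14, while all 25 other arrays lay between 113 and 182. Of its log2 difference from day 4, 3.0% was present at day 8. Nr2f1, a nuclear receptor that patterns the cortex, measured 251, 650 and 932 at day 14 against 88.2, 108 and 330 at day 8. Nr2f2, its paralog, measured 402 to 717 at day 14 against 174 to 359 at day 8. Chgb, a chromogranin of secretory granules in neurons and endocrine cells, measured 288, 600 and 965 at day 14 against 86.8, 101 and 161 at day 8, and its mean at day 8 was not above day 4. Id4, an inhibitor of helix-loop-helix factors, measured 1032 to 2356 at day 14 against 470 to 831 at day 8.

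Several neural genes varied widely among day 14 arrays. Fabp7 measured 3319, 3173 and 4447 in day 14 replicates 1, 3 and 5, and 1593, 569 and 1891 in replicates 2, 4 and 6. Nr2f1 measured 796, 774.5 and 932 in replicates 1, 3 and 5, and 526, 251 and 269 in replicates 2, 4 and 6. Chgb was also above its median in replicates 1, 3 and 5. The SD among day 14 arrays was 1.07 log2 for Fabp7, the highest of the 112, and its median over the higher members was 0.34, against 0.12 over all probe sets.

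The 22 measured genes of the neural progenitor list had a median of 0.14 log2 above day 8. Of these 6 were higher and 0 lower at day 14 than in all 4 groups, beside 8.85% and 5.78% over all genes. Ptprz1, a receptor of radial glia that binds pleiotrophin, was among them (0.80 ± 0.12 log2 above day 8, SE, limma adjusted p = 1.78e-05). Pax6, a factor of dorsal progenitors, was 1.29 ± 0.31 log2 above day 8 (adjusted p = 2.14e-03), but its day 14 range of 174 to 503 overlapped the day 4 range of 91.8 to 382, and it did not pass against all groups. Of the 31 genes of the neuron and glia list, 6 were higher and 0 lower, among them the member Pmp22, a myelin protein, and Dcx, a microtubule protein of migrating neurons (0.67 ± 0.13 log2 above day 8, adjusted p = 3.08e-04). Tubb3, the neuronal tubulin, did not pass, with 2729 to 3929 at day 14 and 2441 to 4000 at day 8.

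Imprinted growth genes were the fourth group. Plagl1, a paternally expressed zinc finger factor, measured 389, 574 and 738 at day 14 against 39.4, 76.8 and 463 at day 8, and no ES or day 4 array was above 65.5. A second Plagl1 probe set moved in the same direction by 0.76 log2 from the nearest group. Cdkn1c, a maternally expressed inhibitor of the cell cycle, measured 4413, 6789 and 8766 at day 14 against 1690, 2897 and 4710 at day 8. Dlk1, a paternally expressed relative of the Notch ligands, measured 2484, 3280 and 4060 at day 14 against 747, 1464 and 2476 at day 8. Peg3, a paternally expressed zinc finger factor, was a member through 1 of 3 probe sets, with 1156 to 1901 at day 14 against 451 to 1279 at day 8. Of the 19 genes of the insulin-like growth factor and imprinted growth list, 6 were higher and 1 lower than in all 4 groups. Over all genes the shares were 8.85% and 5.78%. The list's median was 0.49 log2 above day 8, and 3 of its genes passed without day 8 replicates 1, 3 and 5. In that setting 415 of all probe sets passed as higher, and 1036 with all arrays. Igf2, the fetal growth factor, was 0.47 ± 0.21 log2 above day 8 and did not pass (SE, limma adjusted p = 0.0896).

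Other leading members had mixed roles. Hbb-b2, an adult beta globin, measured 589, 983 and 1587 at day 14, while the other arrays lay between 137 and 370. Beta globin genes are close copies, so the signal may include another copy. Hba-a1 was 0.08 ± 0.11 log2 above day 8 (SE, limma adjusted p = 0.644), and the embryonic globin Hbb-y measured 587 to 3221 at day 14 against 665 to 8498 at day 8. In the erythroid and blood progenitor list, which does not hold Hbb-b2, 1 of 21 genes was higher and 0 lower than in all 4 groups. Over all genes the shares were 8.85% and 5.78%. The higher gene was Runx1, a factor of blood stem cell formation (0.23 ± 0.07 log2 above day 8, SE, limma adjusted p = 0.0197). Ctsc, a lysosomal protease, Pag1, a membrane adaptor of Src kinases, and Dipk2a were 3.29-fold, 3.31-fold and 3.7-fold above their nearest group. The brighter of the Ctsc probe sets was no member and measured 0.25 log2 below day 8 (log2 difference -0.25). Ccnd2, the G1 cyclin D2, measured 1932, 2766 and 4131 at day 14 against 746, 1029 and 1444 at day 8. Fgfr2, a receptor of fibroblast growth factors, was a member through 2 of 3 probe sets, the brightest of which was 0.04 log2 from day 8 and no member. Hmga2, Meis1, Id2, Gas1, Reck, Cxcl12 and Lpl were also higher.

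Of the 21 lower genes 9 were on the pluripotency list. Dppa2, a DNA-binding protein of ES and early germ cells, measured 240, 456 and 1097 at day 14, against 1142, 1968 and 3402 at day 8 and 1353 to 5881 in the ES and day 4 arrays. Its partner Dppa4, the next gene on chromosome 16, measured 575, 811 and 1742 at day 14 against 1675, 3218 and 5098 at day 8. Dppa5a, an RNA-binding protein, measured 1435, 3418 and 6822 at day 14 against 7981, 11011 and 14194 at day 8. Dppa3, which protects imprints in the egg and early embryo, measured 134, 167 and 382 at day 14 against 592, 1039 and 1692 at day 8, and its gelatin arrays began at 367. Fgf4, the autocrine growth factor of ES cells, measured 682, 977 and 1513 at day 14 against 1537, 2866 and 5339 at day 8. Fbxo15, a target of Oct4, measured 377, 600 and 1375 at day 14 against 1431, 2806 and 5212 at day 8. Gdf3, a TGF beta ligand that lies next to Dppa3 on chromosome 6, measured 605 to 866 at day 14 against 872 to 2461 at day 8.

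The level of these genes was not the same in all day 14 arrays. All 9 lower members of the pluripotency list, and 21 of the 24 lower probe sets, were highest in day 14 replicate 6. Dppa2 measured 1097 in that array and 240 in replicate 1. Zfp42, a marker of naive ES cells also named Rex1, split the day 8 arrays most widely. It measured 224, 262 and 626 at day 14, against 5825, 6845 and 7451 in day 8 replicates 1, 3 and 5 and 716, 635 and 730 in replicates 2, 4 and 6, and the gelatin arrays lay at 550 to 844.

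Of the 28 measured pluripotency genes, 0 were higher and 14 lower at day 14 than in all 4 groups. Over all genes the shares were 8.85% and 5.78%. The list's median was -0.75 log2 from day 8, and 9 of its genes were members. Leaving out day 8 replicates 1, 3 and 5, 9 passed. In that setting 265 of all probe sets passed as lower, and 636 with all arrays. The core factors behaved differently from each other. Nanog was 1.40 ± 0.23 log2 lower than at day 8 (log2 difference -1.40, SE, limma adjusted p = 5.59e-05), but its day 14 range of 1472 to 3937 overlapped the gelatin range of 1365 to 4351. Pou5f1, which encodes Oct4, had most of its difference before day 8, with 691 to 1485 at day 14, 949 to 2747 at day 8 and 2407 to 6899 in the ES and day 4 arrays. Its day 14 difference from day 8 was -0.60 ± 0.26 log2 (SE, limma adjusted p = 0.0814). Sox2 measured 5195 to 7221 at day 14 and 3801 to 6075 at day 8.

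The remaining lower members had other functions. Dmrt1, a factor of germ cells, measured 303, 347 and 696 at day 14 against 798, 1371 and 1818 at day 8. Mylpf, a light chain of skeletal muscle myosin, measured 89.6, 112 and 220 at day 14 against 251 to 497 at day 8 and 996 to 2294 at day 4. Its nearest group was gelatin, where 164 to 538 overlapped the day 14 range. A second Mylpf probe set, no member, was -0.53 log2 from its nearest group. Gsta4, a glutathione transferase of lipid aldehydes, measured 732 to 1384 at day 14 against 1291 to 4100 at day 8. Pla2g10, a secreted phospholipase, Dhx16, a splicing helicase, and Rps4l, a relative of a ribosomal protein gene, were 2.54-fold, 2.44-fold and 2.38-fold below their nearest group. The Rps4l probe set is of a type that can cross-hybridize. A second Rps4l probe set, no member, disagreed in sign between groups, at 0.10 log2 from gelatin and -0.12 from day 8. Nme2, a nucleoside diphosphate kinase, lies next to Mbtd1 on chromosome 11, and the pair moved in opposite directions.

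The step from day 8 to day 14 was not the same for all members. Over the 112 higher probe sets, a median of 28.3% of the log2 difference between day 14 and day 4 was present at day 8. More than 50% was present in 16, and less than 10% in 23. For 11 of the 112 the day 4 median lay under the floor, and for 4 of these all day 4 arrays did, so their shares rest on the floor. Day 8 was already higher than day 4 in 53 of the 112 in the limma fit, beside 11.9% of all probe sets, and 59 did not pass. Of the 24 lower probe sets 11 were already lower at day 8, beside 12.6% of all probe sets, with a median of 25.4% of the difference. The day 8 mean entered the choice of members, so these counts are descriptions. Late genes were Dlx1, Chgb, Dcn and Fabp7, and early ones were Apob, Fgb and Dab2. Day 8 was the nearest group for 90 of the 112 higher probe sets, gelatin for 15, sorted cells for 4 and day 4 for 3. Among the lower ones gelatin was nearest for 11, day 8 for 10 and sorted cells for 3.

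Other tissue lists held few members or none. Over all genes, 21.1% were higher and 13% lower at day 14 than at day 8. Against all 4 groups 8.85% of all genes were higher and 5.78% lower. Of the 32 measured cardiac muscle genes 3 were higher and 5 lower than at day 8, and 1 passed against all 4 groups. Tnnt2, cardiac troponin T, measured 667, 739 and 1209 at day 14, 205, 615 and 1024 at day 8, and 102 to 129 in the ES and day 4 arrays. Myh6, the atrial myosin heavy chain, measured 360 to 684 at day 14 and 254 to 618 at day 8 (0.38 ± 0.18 log2, SE, limma adjusted p = 0.12). Against all 4 groups 0 of 11 smooth muscle genes were higher and 1 lower, 1 of 16 cartilage and bone genes was higher and 3 lower, and 1 of 31 genes of the homeobox clusters was higher and 0 lower. In the trophoblast list 1 of 11 was higher and 1 lower, in the lysosome list 1 of 26 was higher and 0 lower, and in the xenobiotic and steroid list 3 of 34 were higher and 3 lower.

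**Figure D4:**
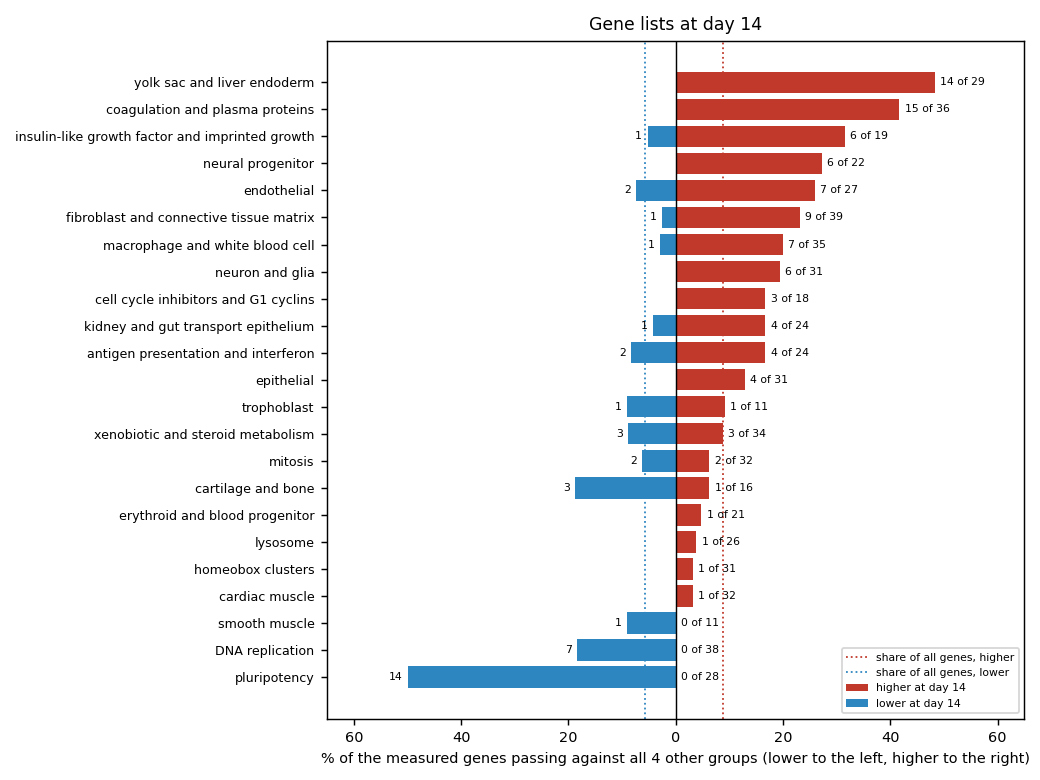
Share of the measured genes of each of 23 lists that passed the limma test against all 4 other groups, with the higher genes to the right and the lower genes to the left and their counts beside the bars. Dotted lines mark the shares over all 8251 genes (8.85% higher and 5.78% lower). The endoderm and plasma lists reach furthest to the right and the pluripotency list furthest to the left.

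The blood, vessel and cell cycle lists held few members. Their counts stand beside 8.85% higher and 5.78% lower than in all 4 groups over all genes. Of 35 macrophage and white blood cell genes 7 were higher and 1 lower than in all 4 groups, and 0 were members. Csf1r, the macrophage growth factor receptor, was 0.70 ± 0.07 log2 above day 8 (SE, limma adjusted p = 4.88e-08) and did not overlap the other arrays. Of 27 endothelial genes 7 were higher and 2 lower. Tek, the angiopoietin receptor, was 0.78 ± 0.17 log2 above day 8 (SE, adjusted p = 1.01e-03), whereas Tie1, its relative, was lower (-0.60 ± 0.10, adjusted p = 6.19e-05). Of 24 genes of antigen presentation and interferon response 4 were higher and 2 lower. Of 38 DNA replication genes 0 were higher and 7 lower, Mcm5, a part of the replicative helicase, among them (-0.85 ± 0.14 log2 from day 8, SE, adjusted p = 4.48e-05). Of 32 mitosis genes 2 were higher and 2 lower, and of 18 cell cycle inhibitors and G1 cyclins 3 were higher and 0 lower.

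The 2-fold limit cut through a continuous range. Just inside it were Hmgcs1, Ero1a and Zhx1 among the higher genes at 1.01, 1.01 and 1.00 log2 from the nearest group, and Tdgf1, Nme2 and Dctpp1 among the lower genes at -1.07, -1.07 and -1.03. Just outside it were Mxi1, Pdgfra and Cubn at 1.00, 1.00 and 0.99, and Bola2, Rps27l and Cebpzos at -0.99, -0.96 and -0.94. Other probe sets were present for 49 of the 120 genes, 70 in all. Of these 70 only 4 were themselves members. By sign alone 47 moved in the same direction against all 4 groups, some by little, such as 0.019 log2 for 1 of Wdr26. In the opposite direction moved 3, those of Rab6a, Zfp30 and Hsd3b1, and the rest were mixed. Probe sets of the types that can cross-hybridize made up 21.3% of the members and 22.6% of all probe sets. Those of Igfbp1, Chgb, Ptn, Timd2, Nr2f2, Mylpf and Rps4l were among them.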

How the data were processed

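The study measured RNA of B6 mouse ES cells and EBs on 31 Affymetrix MgU74Av2 arrays, after 2 rounds of linear amplification. The authors normalized the arrays and modelled the probes with dChip, and the deposited values are its signal intensity on a linear scale. The dChip version is not given in the sources used here. Of 387128 values 104 are exactly 0. Groups were taken from the sample titles. The methods list 12 days in place of 14, and the titles were followed. Later days of differentiation are also listed there, but no array here is from them, so later EBs were not compared. Of 12488 probe sets 66 controls were left out. A gene was named where a probe set carries 1 symbol (10833 probe sets), and it is represented by its brightest probe set, which gives 8251 genes. Among members the brightest member probe set was used. Of the Entrez IDs, 10817 matched the RefSeq table.

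Values were raised to the 5th percentile (59.6) and log2 transformed. All arrays entered 1 limma fit of limma 3.58.1 under R 4.3.3 (functions lmFit and eBayes, with the intensity trend), with 5 group means, and p-values were adjusted by Benjamini-Hochberg over 12422 probe sets. Replicates are separate arrays of a group, the number of arrays limits the precision, and the spread measured is that between them. The procedure was run on simulated arrays with independent noise and known changes at day 14. These held no split among the day 8 arrays, so they cannot show how the procedure behaves under that split. Named genes are the 20 higher and 12 lower with the largest distance to the nearest group, the 3 on each side of the limit, up to 4 genes of each list and the defining markers of its cell type. Others were named after their values were seen. Members and lists were chosen with earlier results of these data known. Alternatives were median centring, quantile normalization, other floors, dim probe sets left out, fits of each contrast's groups, a replicate block, no trend, array weights, linear means, other fold limits, averaging the probe sets of each gene, and arrays left out. Figures were drawn with matplotlib 3.10.9.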

Additional observations from a re-analysis of the deposited data

Results flagged for a closer look

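In each of 153 combinations of a group and 1 of the 32 leading members, the gap between the outermost array and the next was set against the range of the group (Dixon's test). It singled out 10 values, which lie in 7 arrays, and chance gives about 1 in 20 groups. At day 14 all 3 were replicate 6. Col3a1 was 4575 there, and 6557 in the next array. Mylpf was 220 there against 119 in the next, and Dhx16 was 1117 against 898. Among the other groups Postn was 324 and Col3a1 568 in EB day 4 replicate 2. Dlx1 was 122 in EB day 8 replicate 3. Dppa2 was 3486 in ES sorted replicate 5, and Timd2 was 68.4 in ES sorted replicate 1. Plagl1 was 65.5 in ES gelatin replicate 1, and Pag1 was 102 in ES gelatin replicate 6. The gaps were taken on log2 values raised to the floor of 59.6. The lowest sorted signal of Timd2 was 54.05 and the lowest gelatin signal of Plagl1 39.39. The floor narrowed the range in these groups, so their flags rest on it.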

How the results depend on the processing

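The leading members kept their direction under the alternatives run, but counts moved with the fold limit and with the day 8 arrays. With all arrays as deposited there were 112 higher and 24 lower members. A 1.5-fold limit gave 381 and 129, a 3-fold limit 30 and 5, and a 2-fold distance of the day 14 mean from every single array 17 and 5. Without the dimmest 40% of probe sets 65 higher members remained in the table and 674 probe sets were higher than in all 4 groups. Median centring, which shifted the median difference from sorted cells by -0.11 log2, gave 1141 probe sets lower than in all 4 groups and 3153 lower than at day 8. Quantile normalization gave 961 and 2473. Fits of only each contrast's groups gave 887 probe sets higher and 919 lower at day 8 than at day 4. Array weights gave 2676 and 2521, and 2473 lower at day 14 than at day 8.

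The next 3 settings were chosen after seeing the data. Without day 8 replicates 2, 4 and 6 there were 183 higher and 40 lower members. Without replicates 1, 3 and 5 there were 42 and 11, with 415 higher and 265 lower than in all 4 groups, and 701 higher and 476 lower than at day 8. Without day 4 replicates 6 and 7, 2246 were higher and 2409 lower at day 8 than at day 4. Leaving out 1 array at a time gave 89 (without day 8 replicate 5) to 134 higher members (without day 8 replicate 2) and 20 to 29 lower members. The replicate block gave 110 and 24 members, and arrays of the same number correlated between -0.317 and 0.24 after removing group means, so the numbers were not taken to pair samples. The cause of these differences was not tested.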
